A study of Mus musculus with 19 samples.

Results

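A set of 10 genes that mark eosinophils, basophils and mast cells were followed in dorsal root ganglia of mice given a macrophage-depleting drug. They were taken by symbol from a table of 36682 genes and all 10 were found: Prg2, Epx and Siglecf for eosinophils, Mcpt8 and Prss34 for basophils, Cma1, Mcpt4 and Tpsb2 for mast cells, and Cpa3 and Ms4a2, which basophils and mast cells share. All 10 also passed the filter on low counts, which left 22778 genes to test. Bulk poly(A) RNA of the L3-L5 ganglia, pooled per mouse, was sequenced in 19 male mice homozygous for MaFIA (macrophage Fas-induced apoptosis). In this transgene the Csf1r promoter drives a Fas-based suicide receptor in macrophages and other myeloid cells, and the drug AP20187 pairs the receptor molecules and starts apoptosis. Mice received AP20187 or vehicle into the peritoneum on 5 consecutive days, and all 4 groups carried the transgene. The groups were DMM with AP20187 (n = 5; mice 58 to 62), DMM with vehicle (n = 5; mice 32, 33, 34, 63 and 64), naive with AP20187 (n = 4; mice 1, 3, 4 and 5) and naive with vehicle (n = 5; mice 1 to 5). DMM is destabilization of the medial meniscus, a surgical model of knee osteoarthritis, and these mice were treated 8 weeks after surgery, with ganglia taken from the operated side. Naive mice were age-matched and unoperated, and the ages themselves are not given in the sources used here.

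Eosinophils, basophils and mast cells are granulocytes that arise in bone marrow and carry preformed proteins in their granules. Eosinophils store the toxic proteins of the crystalloid granule and respond to interleukin 5. Basophils and mast cells carry the high-affinity IgE receptor and release histamine and proteases when it is cross-linked. Basophils circulate after maturing in marrow, whereas mast cells mature and live in tissue, in peripheral nerve sheaths and the meninges among other sites.

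In naive mice 5 of the 10 genes rose with AP20187: the eosinophil genes Prg2 and Epx, the basophil genes Mcpt8 and Prss34, and Cpa3. Their mean levels were 3.25 to 5.73 times those of vehicle, and 8.61% of all genes tested were called higher in that comparison (11.2% in either direction). In DMM mice 3 rose with AP20187, Epx, Siglecf and Ms4a2, at 3.37 to 3.38 times the vehicle mean, where 11.3% of all genes tested were called higher and 23.8% in either direction. Epx was the gene called in both. None of the 10 was called lower in any comparison. The mast cell proteases Cma1, Mcpt4 and Tpsb2 were called in neither by the edgeR fit of all 19 libraries.

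Positions are those of the deposited table, on the GRCm39 build per the submitters' processing notes. Prg2 (ENSMUSG00000027073) encodes major basic protein, the core of the eosinophil granule, and lies at chr2:84810805-84813976. Epx (ENSMUSG00000052234), eosinophil peroxidase, lies at chr11:87754826-87766362. Siglecf (ENSMUSG00000039013), a sialic acid-binding receptor of eosinophils and alveolar macrophages, lies at chr7:43000765-43008955. Mcpt8 (ENSMUSG00000022157), a granule protease of basophils, lies at chr14:56319623-56322730, and Prss34 (ENSMUSG00000056399), a tryptase-like protease also of basophils, at chr17:25517368-25519139. Cpa3 (ENSMUSG00000001865), carboxypeptidase A3, lies at chr3:20269784-20296345. Ms4a2 (ENSMUSG00000024680), the beta chain of the high-affinity IgE receptor, lies at chr19:11592887-11601083. The connective tissue mast cell chymases Cma1 (ENSMUSG00000022225) and Mcpt4 (ENSMUSG00000061068) lie at chr14:56178908-56182132 and chr14:56297086-56299770. Tpsb2 (ENSMUSG00000033825), a mast cell tryptase, lies at chr17:25585279-25587070. Cpa3 overlaps 1 other annotated gene, Mir7007, and the other 9 overlap none. Cma1, Mcpt4 and Mcpt8 belong to one protease cluster, and Tpsb2 has the near copy Tpsab1. How reads that match more than one copy were assigned is not given in the sources used here, so levels within these families are uncertain.

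GATA1 and GATA2 are the transcription factors best known for driving these lineages, and they bind DNA around the letters GATA. RefSeq promoters on the older GRCm38.p6 build, 300 bases from 250 before to 50 after the start site, were matched for 8 of the 10 genes; Prg2 and Tpsb2 were not among them. The letters GATAA, or TTATC on the other strand, occurred in 6 of these 8 and in 25.4% of all 32851 promoters of that length. The last 150 bases before the start site are printed here for the 4 genes with a match in that stretch and for Epx and Mcpt8, which had none anywhere in the 300 bases, since these 6 carry the contrast between matching and non-matching promoters. Capitals mark the matches, and coordinates are on GRCm38.p6: Cpa3 at chr3:20242182-20242331, minus strand; Prss34 at chr17:25298244-25298393, plus strand; Mcpt4 at chr14:56062311-56062460, minus strand; Ms4a2 at chr19:11623720-11623869, minus strand; Epx at chr11:87875537-87875686, minus strand; Mcpt8 at chr14:56085198-56085347, minus strand.
Cpa3: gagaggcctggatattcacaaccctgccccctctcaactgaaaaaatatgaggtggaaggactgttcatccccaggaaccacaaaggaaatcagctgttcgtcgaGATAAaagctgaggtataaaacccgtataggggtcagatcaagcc
Prss34: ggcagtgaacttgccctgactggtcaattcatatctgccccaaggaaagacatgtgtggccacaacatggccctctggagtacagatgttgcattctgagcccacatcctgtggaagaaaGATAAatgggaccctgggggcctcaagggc
Mcpt4: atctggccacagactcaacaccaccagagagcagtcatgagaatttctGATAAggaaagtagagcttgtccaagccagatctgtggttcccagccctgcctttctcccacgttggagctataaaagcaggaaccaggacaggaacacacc
Ms4a2: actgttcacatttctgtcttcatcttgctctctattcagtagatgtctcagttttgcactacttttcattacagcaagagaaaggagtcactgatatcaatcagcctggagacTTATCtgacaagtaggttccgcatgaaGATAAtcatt
Epx: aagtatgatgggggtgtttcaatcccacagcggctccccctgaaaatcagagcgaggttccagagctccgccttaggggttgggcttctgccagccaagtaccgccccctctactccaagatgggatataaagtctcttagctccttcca
Mcpt8: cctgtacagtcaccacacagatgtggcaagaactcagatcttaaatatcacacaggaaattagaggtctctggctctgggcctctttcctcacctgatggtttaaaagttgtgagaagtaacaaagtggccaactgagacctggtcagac
Ms4a2 had 3 matches in its 300 bases, 2 of them in the stretch shown, and Siglecf and Cma1 had 1 each outside it. Of the genes without a match, Epx was called in both comparisons and Mcpt8 in naive mice. Of those with a match, Prss34 and Cpa3 were called in naive mice and Siglecf and Ms4a2 in DMM mice. Cma1 and Mcpt4, also with a match, were called in neither. A link between matches and calls was not tested. A match describes letters in the reference, not binding in these ganglia. Gata1 itself had a mean of 4.19 CPM (reads scaled to library size) in DMM mice with AP20187 and 5.09 CPM with vehicle. Gata2 had 9.77 CPM and 5.77 CPM. Neither passed the test in DMM mice (log2 fold change -0.28 ± 0.62 SE, adjusted p = 0.791 for Gata1 and 0.76 ± 0.46, adjusted p = 0.248 for Gata2) or in naive mice (-0.15 ± 0.66, adjusted p = 0.899 and 0.74 ± 0.48, adjusted p = 0.314).

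Libraries held 60984830 to 74691396 reads counted to genes, so depth differed little. Each member had between 23 and 11971 reads in every library, and none was at 0. Sensory neuron markers (Prph, Avil, Isl1 and 3 others) summed to 774 to 6570 CPM across the 19 libraries, so the labelled tissue was present in all. Other cell types moved with the drug. Granulocyte precursor markers (Mpo, Elane, Prtn3 and 2 others measured) summed to 1220 to 2630 CPM in DMM mice with AP20187, 30.3 to 404 with vehicle, 319 to 1690 in naive mice with AP20187 and 45.6 to 115 with vehicle, and all 5 rose in both comparisons. Neutrophil markers rose for 5 of 8 in DMM and 6 of 8 in naive mice. Sensory neuron markers fell for 5 of 6 in DMM mice and 0 of 6 in naive mice. Of 8 macrophage markers, 1 was called higher in DMM mice and 3 in naive mice, with none lower, and Csf1r averaged 69.1 and 70.0 CPM in DMM mice with AP20187 and vehicle. Skeletal muscle markers, all 5 of them, summed to 1470 to 2220 CPM in naive mice with AP20187 and to 11.1 to 403 with vehicle, and 2 rose. In DMM mice they summed to 15.1 to 124 with AP20187 and 13.3 to 1710 with vehicle, and 1 fell. Also in DMM mice, 3 of 6 satellite glia and Schwann cell markers fell (summed 2100 to 4440 against 3540 to 6940 CPM) and 2 of 4 skin epithelium markers rose (1.39 to 9.05 against 2.09 to 4.70 CPM), while none of either list was called in naive mice. In RNA of a whole ganglion, more cells of a type and more RNA per cell cannot be told apart. The part of these other cell types in the results on the 10 genes was not tested.

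The length-scaled level, FPKM (fragments scaled to gene length and depth), allows the genes to be ranked against each other. Averaged over 19 libraries, Prg2 was the highest at 80.9 FPKM (range 10.1 to 224), followed by Prss34 at 21.8 (3.4 to 54.3) and Cpa3 at 12.6 (2.56 to 42.9). Mcpt8 at 9.93, Mcpt4 at 9.35, Epx at 9.17 and Cma1 at 8.88 FPKM lay close together, well within their ranges. Tpsb2 had 5.17 FPKM, Ms4a2 1.65 (0.144 to 7.16) and Siglecf 0.894 (0.106 to 3.09). Prg2 and Prss34 took ranks 1 and 2, and Ms4a2 and Siglecf the last places, in each of the 4 groups. The middle of the order shifted: Mcpt4 had rank 3 in both vehicle groups and rank 7 in both AP20187 groups, while Epx had rank 8 with vehicle and rank 4 (DMM) or 5 (naive) with AP20187. These ranks are descriptions of group means, with no test.

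**Figure D1:**
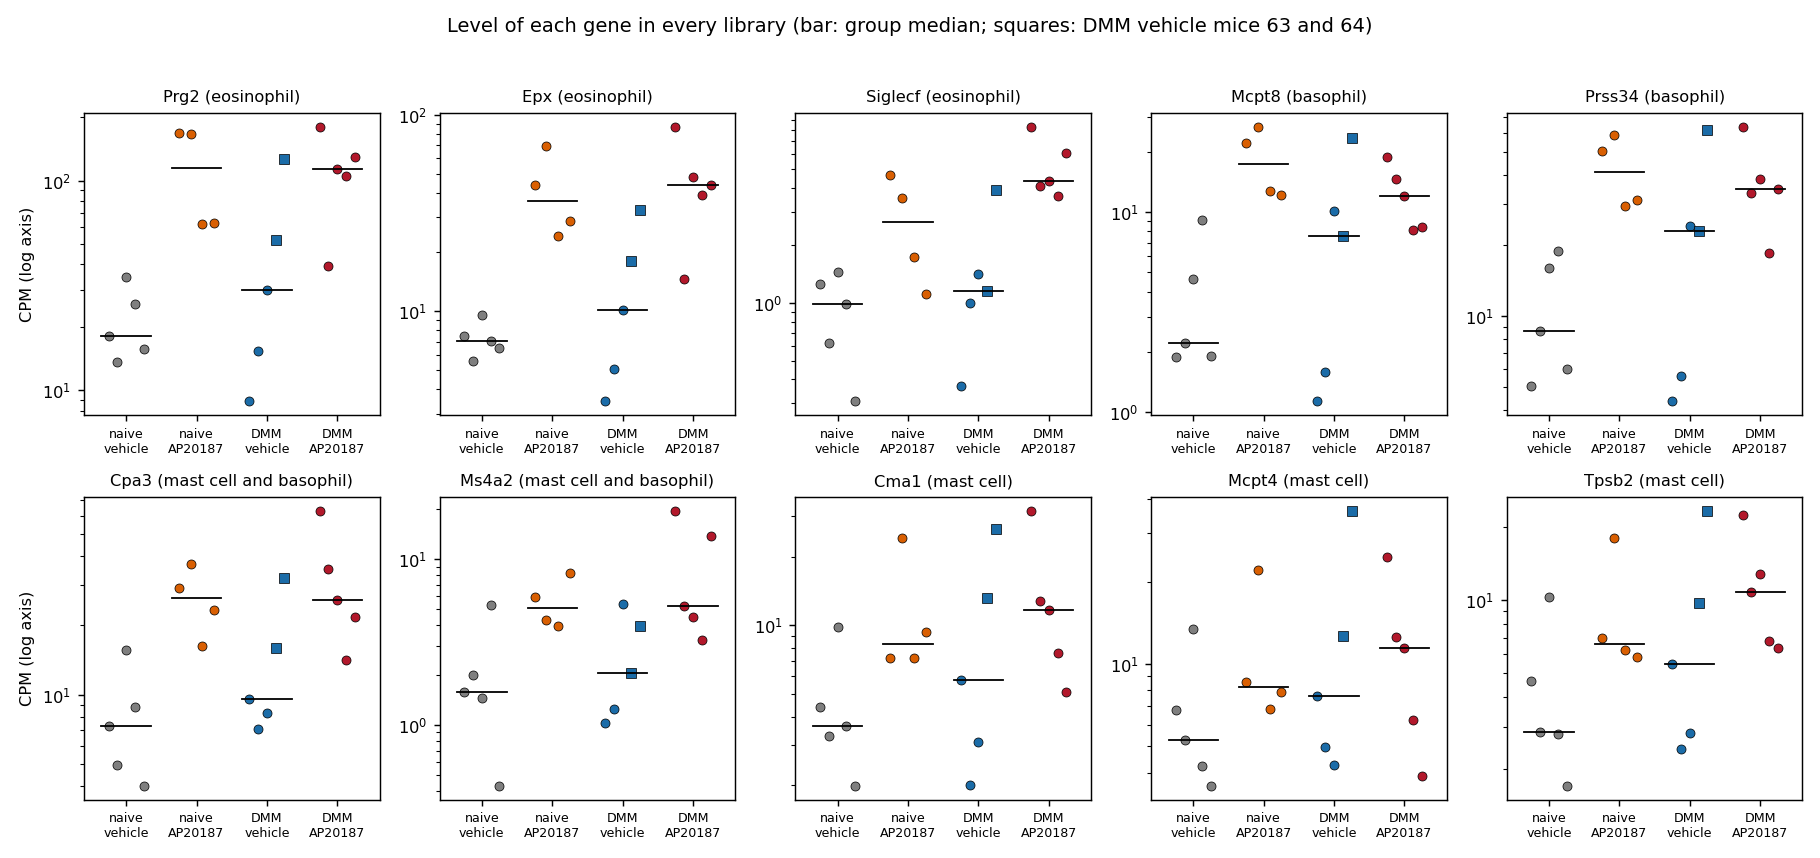
Level of the 10 genes in CPM on log axes, each point 1 mouse, in 4 groups of 4 or 5; bars are group medians and squares are DMM vehicle mice 63 and 64. Prg2 and Epx in naive mice show AP20187 points all above the vehicle points, whereas in DMM mice vehicle mouse 64 (Prg2 126 CPM, Mcpt4 36.2 CPM) reaches into or past the AP20187 range.

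Levels from here on are CPM on the scaled library sizes, fold changes are log2 of AP20187 over vehicle from edgeR's quasi-likelihood fit of all 4 groups with the standard error (SE), and a gene was called when its Benjamini-Hochberg adjusted p over all tested genes was under 0.05. Nothing in the labels says that libraries were processed on separate occasions.

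Epx and Prg2 had the largest log2 fold changes of the 10 genes in naive mice. Prg2 in naive mice read 169, 166, 62.1 and 62.9 CPM with AP20187 (mice 1, 3, 4, 5) against 18.1, 13.7, 34.5, 25.9 and 15.7 CPM with vehicle (mice 1 to 5). All 4 treated mice were above all 5 controls, the former falling into a high and a low pair. The log2 fold change was 2.41 ± 0.61 (adjusted p = 0.0171). It missed the threshold without AP20187 mouse 1 (0.0583) or 3 (0.0587) or vehicle mouse 2 (0.0505). In DMM mice Prg2 read 181, 39.3, 113, 105 and 130 CPM with AP20187 (mice 58 to 62) and 8.84, 15.3, 30.0, 51.9 and 126 CPM with vehicle (mice 32, 33, 34, 63, 64). These ranges overlapped, since vehicle mouse 64 was above 3 of the treated mice and treated mouse 59 below vehicle mouse 63. The fold change of 1.29 ± 0.57 was not called (adjusted p = 0.104). Without vehicle mouse 64 it was called (2.10, adjusted p = 0.0056), as it was with weighted limma (1.97, 0.0017) and limma on FPKM (1.66, 0.0396).

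Epx separated the naive groups further. In naive mice it read 43.7, 69.3, 24.2 and 28.9 CPM with AP20187 and 7.44, 5.60, 9.60, 7.03 and 6.53 CPM with vehicle. The controls lay within a narrow band, and the lowest treated mouse was above the highest of them. The log2 fold change was 2.52 ± 0.55 (adjusted p = 0.00751), with means of 41.5 ± 20.3 (SD, n = 4) and 7.24 ± 1.49 CPM (SD, n = 5). Epx in naive mice passed the threshold under all 18 alternatives tried, with adjusted p up to 0.0343. In DMM mice Epx read 87.2, 14.5, 48.4, 39.2 and 44.1 CPM with AP20187 and 3.47, 5.07, 10.1, 18.0 and 32.7 CPM with vehicle. Every treated mouse but 59 was above every control. Epx was called there at 1.75 ± 0.52 (adjusted p = 0.022). That call was lost without treated mouse 58 (adjusted p = 0.073), vehicle mouse 33 (0.0555) or vehicle mouse 34 (0.0522), and with only the compared groups in the fit (0.0589).

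Siglecf was the least abundant of the 10. In DMM mice it read 8.34, 4.08, 4.33, 3.62 and 6.05 CPM with AP20187 and 0.37, 1.00, 1.42, 1.15 and 3.89 CPM with vehicle. Only vehicle mouse 64 reached the treated range. The log2 fold change was 1.75 ± 0.54 (adjusted p = 0.0265). Leaving out any one of mice 58 (adjusted p = 0.0729), 62 (0.0502), 32 (0.0544), 33 (0.0669), 34 (0.0552) or 63 (0.0543) ended the call. In naive mice Siglecf read 4.67, 3.53, 1.75 and 1.12 CPM with AP20187 and 1.26, 0.622, 1.45, 0.984 and 0.307 CPM with vehicle. Mouse 5 lay among the controls, and the difference of 1.58 ± 0.56 was not called (adjusted p = 0.0761). Without mouse 5 it was (1.85, adjusted p = 0.037), as it was with DESeq2 (1.59, adjusted p = 0.0312). Siglecf also marks alveolar macrophages. Of 8 tested markers of alveolar macrophages and lung epithelium, 4 were called higher in DMM mice, and 3 higher and 1 lower in naive mice. Marco was at 0 counts in all 5 naive vehicle libraries, which allows up to 0.04 to 0.0484 CPM, while Siglecf was read in each of them. Marco reached 0.302 CPM in DMM vehicle, 2.24 CPM in DMM AP20187 and 3.15 CPM in naive AP20187 libraries, and Car4 ranged from 0.629 to 3.39 CPM over the 4 groups. Sftpc, a surfactant gene of lung epithelium named after its values were seen, was at 0 in all 5 DMM vehicle libraries and at 0.289 to 1.99 CPM in DMM AP20187 libraries, and reached 0.19 CPM in naive AP20187 and 0.984 CPM in naive vehicle libraries. Scgb3a1, a secretory airway gene chosen likewise, was at 0 in DMM vehicle, at 0.951 to 2.21 CPM in DMM AP20187, at up to 0.08 CPM in naive vehicle and at 1.05 to 3.04 CPM in naive AP20187 libraries. The part of such RNA in the Siglecf result was not tested. Summed, the list read 2830 to 7970 CPM in DMM mice with AP20187, 53.2 to 826 with vehicle, 1330 to 4290 in naive mice with AP20187 and 107 to 367 with vehicle, nearly all of it Chil3, a chitinase-like protein that granulocyte precursors also make.

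Of 8 other eosinophil genes tested, 5 rose in naive mice and 1 in DMM mice, with none lower, and their median log2 fold changes were 2.20 and 0.97. Ear1, an eosinophil-associated ribonuclease, averaged 33.4 CPM against 5.01 in naive mice (2.74 ± 0.58, adjusted p = 0.00668) and 26.2 against 10.7 in DMM mice (1.30 ± 0.54, adjusted p = 0.085). Ear6 rose by 2.72 ± 0.67 in naive mice (adjusted p = 0.0161), and Prg3, the neighbour and homologue of Prg2, by 2.50 ± 0.71 (adjusted p = 0.0311). Cebpe, a transcription factor of late granulocyte maturation that neutrophils need too, rose in both (3.12 ± 0.69 in naive and 3.01 ± 0.67 in DMM mice, adjusted p = 0.0083 and 0.00475). The receptor genes Ccr3 and Il5ra were not called. Ccr3, the eotaxin receptor, averaged 0.922 against 1.54 CPM in naive and 0.781 against 1.90 CPM in DMM mice (adjusted p = 0.492 and 0.166). Il5ra, the interleukin 5 receptor chain, averaged 1.17 against 0.493 CPM and 0.929 against 1.09 CPM (adjusted p = 0.117 and 0.771).

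Basophil genes rose in naive mice. Mcpt8 read 22.2, 26.8, 12.7 and 12.2 CPM with AP20187 and 1.89, 2.21, 4.65, 9.08 and 1.91 CPM with vehicle. All treated mice were above all controls, among which mouse 4 was the highest. The log2 fold change was 2.23 ± 0.68 (adjusted p = 0.0414). Prss34 read 50.6, 58.7, 29.5 and 31.3 CPM with AP20187 and 5.07, 8.63, 16.1, 19 and 5.96 CPM with vehicle, again without overlap (1.96 ± 0.60, adjusted p = 0.0428). Both calls sat near the threshold: leaving out AP20187 mouse 1 or 3, or vehicle mouse 1, 2 or 5, ended both, with adjusted p from 0.0902 to 0.127 for Mcpt8 and from 0.0918 to 0.128 for Prss34, and leaving out vehicle mouse 3 ended that of Mcpt8 (0.0603).

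In DMM mice the basophil genes were not called by the edgeR fit of all 19 libraries. Mcpt8 read 18.8, 14.6, 12.0, 8.10 and 8.42 CPM with AP20187 and 1.13, 1.58, 10.1, 7.56 and 23.6 CPM with vehicle. The highest of all 10 mice was vehicle mouse 64, and the 2 lowest were vehicle mice 32 and 33. The fold change was 0.49 ± 0.63 (adjusted p = 0.62). Prss34 read 64.0, 33.3, 38.4, 18.6 and 34.8 CPM with AP20187 and 4.35, 5.60, 24.1, 23.1 and 61.6 CPM with vehicle (0.67 ± 0.56, adjusted p = 0.421), and it was called without vehicle mouse 64 (1.41, adjusted p = 0.0454). Limma with library weights called both in DMM mice, Mcpt8 at 1.61 (adjusted p = 0.0135) and Prss34 at 1.54 (adjusted p = 0.00861), where it called 21.9% of all genes higher. The drug effect on Mcpt8 was not shown to differ between surgery states: the interaction was -1.73 ± 0.92 (adjusted p = 0.711). Among 5 other basophil genes tested, 2 rose in each comparison. Il4 and Aqp9, looked at after their values were seen, were called in neither and all 4 of their values were negative. Il4, the cytokine interleukin 4, had a log2 fold change of -1.07 ± 0.44 with adjusted p = 0.0796 after DMM surgery and -0.64 ± 0.46 with adjusted p = 0.359 in naive mice. Aqp9, a water and glycerol channel, had -0.50 ± 0.59 and -0.06 ± 0.63 in the same order, with adjusted p = 0.593 and 0.961. Ifitm1, an interferon-inducible membrane protein found in basophils and in many progenitors, averaged 220 against 2.90 CPM in naive mice (6.24 ± 0.55, adjusted p = 5.68e-06) and 200 against 4.35 CPM in DMM mice (5.52 ± 0.52, adjusted p = 5.85e-06). Cd200r3, an activating receptor of basophils and mast cells, rose in naive mice (2.35 ± 0.67, adjusted p = 0.0313) and was not called in DMM mice (0.70 ± 0.62, adjusted p = 0.45). Itga2b, the platelet integrin chain, rose in DMM mice (1.78 ± 0.48, adjusted p = 0.0149).

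Of the pair shared by basophils and mast cells, Cpa3 rose in naive mice and Ms4a2 in DMM mice. Cpa3 in naive mice read 29.2, 37.1, 16.2 and 23.4 CPM with AP20187 and 7.30, 4.94, 15.7, 8.79 and 4.00 CPM with vehicle. The ranges just failed to meet, with treated mouse 4 above vehicle mouse 3. The log2 fold change was 1.70 ± 0.49 (adjusted p = 0.0318), lost without AP20187 mouse 1 (0.0799) or 3 (0.109) or vehicle mouse 1 (0.0735), 2 (0.0815) or 5 (0.0718). In DMM mice Cpa3 read 62.9, 35.1, 25.7, 14.1 and 21.7 CPM with AP20187 and 9.54, 7.07, 8.28, 15.9 and 32.1 CPM with vehicle. All 5 treated mice were above vehicle mice 32, 33 and 34, and only 2 were above mouse 64 (1.13 ± 0.46, adjusted p = 0.0806). Without vehicle mouse 64 it was called (1.65, adjusted p = 0.00906), and without treated mouse 61 as well (1.32, adjusted p = 0.0425). DESeq2 (1.17, adjusted p = 0.0384) and weighted limma (1.62, adjusted p = 0.000656) called it with all 10 mice.

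Ms4a2 in DMM mice read 19.5, 5.18, 4.50, 3.24 and 13.7 CPM with AP20187 and 1.03, 1.25, 5.34, 2.06 and 3.96 CPM with vehicle. Mice 58 and 62 stood above the rest, and the other 3 treated mice lay within the vehicle range. It was called at 1.76 ± 0.61 (adjusted p = 0.0447), and not without mouse 58 (0.153), 62 (0.0934), 32 (0.103), 33 (0.106) or 63 (0.0831). The call was also lost without scaling factors (0.0518), without the filter on low counts (0.0703), with weighted limma (0.0556) and with only the compared groups in the fit (0.0557). In naive mice it read 5.93, 4.27, 3.95 and 8.20 CPM with AP20187 and 1.59, 1.99, 1.45, 5.31 and 0.428 CPM with vehicle. Vehicle mouse 4 lay within the treated range, and the difference of 1.38 ± 0.63 (adjusted p = 0.159) was called without that mouse (2.03, adjusted p = 0.0422) and with weighted limma (1.90, adjusted p = 0.034). Ms4a2 is 1 of 3 chains of the IgE receptor. Fcer1a, the chain that binds IgE, averaged 4.79 against 1.07 CPM in naive mice (2.17 ± 0.60, adjusted p = 0.0268) and 6.05 against 2.12 CPM in DMM mice (1.51 ± 0.56, adjusted p = 0.0587). Fcer1g, the signalling chain that most myeloid cells use, rose in both (2.63 ± 0.58 and 1.89 ± 0.55, adjusted p = 0.00815 and 0.0203). Of the 8 receptor and proximal signalling genes tested besides Ms4a2, 5 rose in each comparison. Lyn, Btk and Plcg2, signalling proteins that neutrophils, macrophages or B cells carry too, were among the 5 both times (log2 fold changes 1.72 to 1.96).

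The mast cell proteases were not called by the edgeR fit of all 19 libraries. Cma1 in naive mice read 7.21, 24.0, 7.19 and 9.38 CPM with AP20187 and 4.41, 3.28, 9.83, 3.65 and 1.99 CPM with vehicle. Mouse 3 was high in the treated group and mouse 3 in the vehicle group, which are separate animals, and the ranges overlapped (1.37 ± 0.68, adjusted p = 0.188). In DMM mice Cma1 read 31.6, 12.8, 11.7, 7.55 and 5.11 CPM with AP20187 and 5.78, 2.01, 3.09, 13.2 and 26.5 CPM with vehicle (0.44 ± 0.64, adjusted p = 0.665). Mcpt4 averaged 11.3 ± 7.13 CPM (SD, n = 4) against 6.65 ± 3.95 (SD, n = 5) in naive mice and 11.7 ± 8.00 against 13.2 ± 13.3 (SD, n = 5 each) in DMM mice. Its log2 fold changes were 0.77 ± 0.62 (adjusted p = 0.413) and -0.17 ± 0.58 (adjusted p = 0.871), the latter the only negative value among the 20. The sign of the DMM value turned without vehicle mouse 64 (0.66, adjusted p = 0.356) or treated mouse 62 (0.06, adjusted p = 0.964), and that of Cma1 without treated mouse 58 (-0.12, adjusted p = 0.921). Tpsb2 averaged 9.27 ± 5.92 against 4.46 ± 3.43 CPM and 11.8 ± 6.48 against 8.74 ± 8.63 CPM (1.05 ± 0.63 and 0.44 ± 0.59, adjusted p = 0.271 and 0.646). Weighted limma, which gives libraries that stand apart less weight, called Cma1 (1.57, adjusted p = 0.00714) and Tpsb2 (1.55, adjusted p = 0.0046) in DMM mice, and gave 0.83 for Mcpt4 (adjusted p = 0.0909). With those weights 21.9% of all genes were called higher. Against vehicle mice 32 to 34 alone, edgeR also called Cma1 and Tpsb2 in DMM mice (adjusted p = 0.0272 and 0.0316). There 17.5% of all genes were called higher. With a replicate block, edgeR called both in naive mice (adjusted p = 0.0345 and 0.0395), where 8.38% of all genes were called higher. A p above the threshold does not show that these proteases stayed at one level.

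Other mast cell genes were divided. Of 9 tested, 2 rose and 1 fell in DMM mice, and 2 rose in naive mice. Kit, the stem cell factor receptor on which mast cells depend and which some sensory neurons express as well, fell in DMM mice from 68.6 to 28.8 CPM (-1.25 ± 0.33, adjusted p = 0.013) and read 82.8 and 46.4 CPM in naive mice (-0.83 ± 0.35, adjusted p = 0.128). Hdc, which makes histamine and is active in neutrophil precursors too, rose in both (2.83 ± 0.57 and 2.59 ± 0.55, adjusted p = 0.00448 and 0.00368). Tph1, the serotonin-forming hydroxylase, rose in both (1.60 ± 0.47 and 1.28 ± 0.44, adjusted p = 0.0354 and 0.0434). Tpsab1, the tryptase next to Tpsb2, averaged at most 0.923 CPM in any group.

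Over the 10 genes, AP20187 in naive mice gave 5 calls, all higher, where 8.61% of the 22778 genes tested were called higher and 11.2% were called in either direction. The 5 were the same genes whose treated mice were all above all controls, a pattern found in 9.39% of tested genes. All 10 values were positive, with a median of 1.64, against -0.07 for all tested genes. Without scaling factors, or without the filter on low counts, Mcpt8, Prss34 and Cpa3 missed the threshold (adjusted p = 0.0501 to 0.0673). Of all genes called in naive mice, 1962 of 2548 were higher, and without scaling factors 1550 of 2465. In DMM mice 3 were called, all higher, where 11.3% of tested genes were called higher and 23.8% in either direction. None of the 10 had every treated mouse above every control, against 8.71% of tested genes. Of the 10 values 9 were positive, with a median of 0.90, against -0.10 for all tested genes. Since the 10 genes were chosen for their cell types with earlier results known, these counts describe them and are no test of the group.

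**Figure D2:**
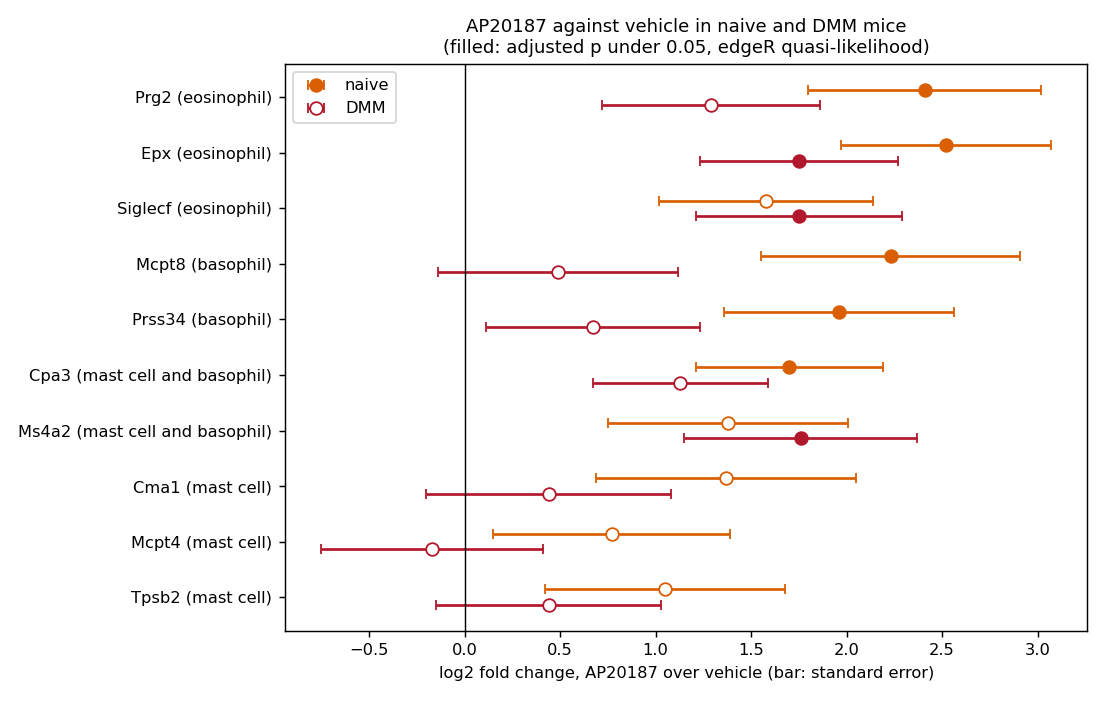
Log2 fold change of AP20187 over vehicle (x axis) for each gene (y axis), in naive and DMM mice, with bars of 1 standard error; filled points passed the adjusted p threshold. Naive values run from 0.77 for Mcpt4 to 2.52 for Epx, DMM values from -0.17 for Mcpt4 to 1.76 for Ms4a2.

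The DMM comparison turned on which vehicle mice were used. Vehicle mice 63 and 64 continue the numbers of the treated mice (58 to 62), whereas mice 32 to 34 come from a separate run of numbers. Both of the former were above all 3 of the latter for 6 of the 10 genes (Prg2, Epx, Cpa3, Cma1, Mcpt4 and Tpsb2), a pattern found in 29.3% of all genes tested. Against mice 32, 33 and 34 alone, that is across number runs, 7 genes were called higher with AP20187, where 17.5% of all genes tested were called higher and 36.3% in either direction. They were Prg2 (2.66, adjusted p = 0.00205), Epx (2.91, 0.000792), Siglecf (2.50, 0.00469), Cpa3 (1.94, 0.00609), Prss34 (1.74, 0.0268), Cma1 (1.92, 0.0272) and Tpsb2 (1.73, 0.0316). Against mice 63 and 64 alone, within a number run, edgeR called 4.73% of all genes tested (2.71% higher) and none of the 10, none had an unadjusted p under 0.05, and Mcpt8, Prss34, Cma1 and Tpsb2 turned negative. Neutrophil markers summed to 378 to 7360 CPM across the DMM vehicle mice and to 14500 to 24400 CPM in DMM mice with AP20187. Without vehicle mouse 64, 6 of the 10 were called, where 15.5% of all genes tested were called higher. Without treated mouse 58 or vehicle mouse 33 the count was 0 (8.25% and 8.28% of all genes called higher), with 3 genes at an unadjusted p under 0.05 each time. Without treated mouse 62 or vehicle mouse 32, 34 or 63 it was 1 (8.5%, 8.64%, 9.03% and 10.1%). In naive mice the count was 1 without AP20187 mouse 1 or 3 or vehicle mouse 2 (4.17%, 3.61% and 4.6% of all genes called higher), and 2 without vehicle mouse 1 or 5 (4.92% and 5.83%).

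Surgery itself gave no calls. Between DMM and naive mice on vehicle, edgeR called 0 of the 10 genes and 0.0% of all genes, with 0 of 10 and 377 of 22778 genes (1.66%) at an unadjusted p under 0.05. DESeq2 and both limma fits called none of the 10 either, with 2, 0 and 0 at an unadjusted p under 0.05. All 10 values were positive, from 0.34 for Ms4a2 to 1.16 for Mcpt8, with a median of 0.97 against 0.03 for all genes. With mice 63 and 64 as the only DMM vehicle mice, Prg2 (2.10, adjusted p = 0.0485) and Prss34 (2.01, adjusted p = 0.0491) were called, where 2.21% of all genes tested were called (1.77% higher) against none with all 5 mice. With mice 32 to 34 none of the 10 was called, nor any other gene, and 5 of the 10 values were negative, from -0.22 for Epx to -0.35 for Cma1, the other 5 lying between 0.01 and 0.24. Between DMM and naive mice on AP20187, edgeR, DESeq2, weighted limma and limma on FPKM called 0 of the 10, with 0, 0, 1 and 1 at an unadjusted p under 0.05, and the 4 fits called 0.702%, 3.12%, 10.8% and 5.36% of all genes. With edgeR, 16.7% of all genes had an unadjusted p under 0.05 there. Values ran from -0.58 for Mcpt8 to 0.93 for Siglecf. The interaction of surgery and drug was called for 0 of the 10 by all 4 fits, none with an unadjusted p under 0.05, and for 0.114% of all genes by edgeR, with values from -1.73 for Mcpt8 to 0.38 for Ms4a2. The 4 comparisons share groups in pairs, so their values are not independent.

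Within groups 3 sets of genes varied closely together: Prg2 with Epx, Mcpt8 with Prss34, and the mast cell proteases with Cpa3. Deviations of log2 CPM from the group mean were correlated over the 19 libraries, which share depth and tissue composition, and the values are given as descriptions. Prg2 and Epx had r = 0.96, Mcpt8 and Prss34 r = 0.97, and the 3 mast cell proteases r = 0.96 to 0.97 with each other. Cpa3 went with the mast cell proteases (r = 0.89 to 0.90) more than with Mcpt8 (0.69) or Prss34 (0.75). Ms4a2 went with none of the other 9 above r = 0.66, and with Mcpt4 had r = 0.15. Siglecf, the remaining eosinophil gene, had r = 0.82 with Prg2 and 0.73 with Epx, and about as much with Prss34 (0.76), Mcpt8 (0.74) and Cpa3 (0.71). Prg2 itself had 0.83 with Prss34, 0.78 with Mcpt8 and 0.61 with Cma1, so eosinophil and basophil genes were not cleanly divided. Without the DMM vehicle group (14 libraries) r was 0.92 for Prg2 with Epx, 0.91 for Mcpt8 with Prss34 and 0.95 to 0.97 among the 3 mast cell proteases, while Prg2 had 0.61 with Prss34, 0.50 with Mcpt8 and 0.41 with Cma1. Siglecf had 0.73 with Prg2 and 0.57 with Epx there, and 0.72 with Cpa3 and 0.68 with Tpsb2.

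**Figure D3:**
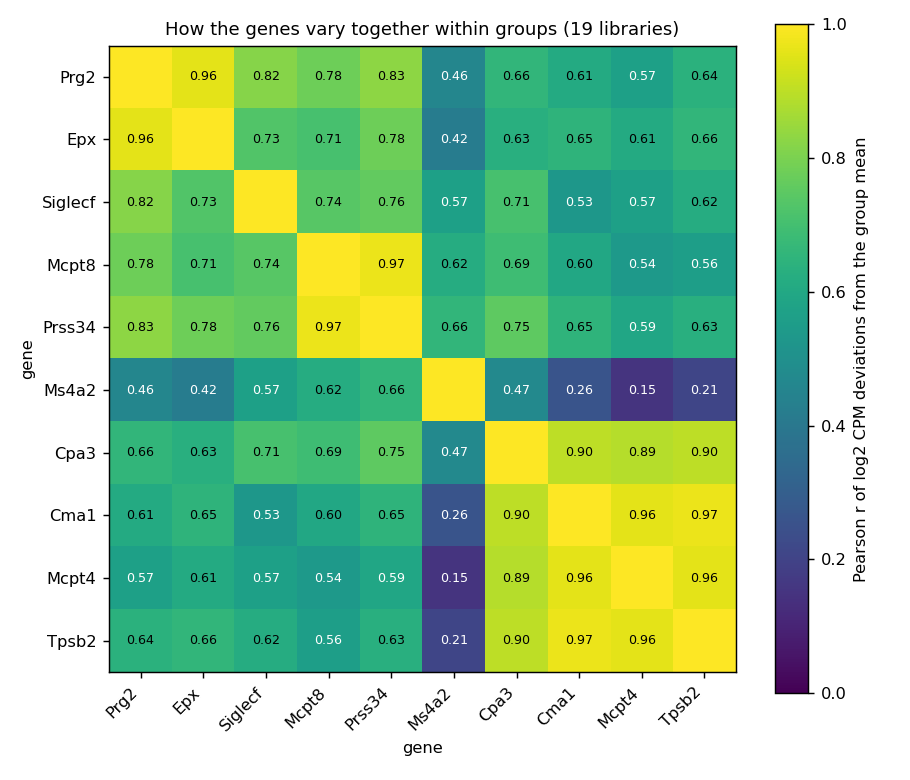
Pearson r between the 10 genes (both axes) of log2 CPM deviations from the group mean over 19 libraries; colour runs from 0 to 1. The bright block at the lower right is Cpa3 with Cma1, Mcpt4 and Tpsb2 (0.89 to 0.97), and Ms4a2 forms the dark row (0.15 to 0.66).

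Prg2, Mcpt8 and Cma1, 1 gene for each cell type, were each compared with other genes. The 10 genes themselves, and genes with only a predicted-gene or clone name, were left out of this ranking. Among the 14470 genes ranked, with a mean of at least 1 CPM, those most like Prg2 were 5. They were Ear2 (r = 0.98), Prg3 (0.97), Ear1 (0.97), Tmbim6 (0.95) and Ear6 (0.95), of which 4 are eosinophil granule genes. Epx, left out as 1 of the 10, had r = 0.96 with Prg2. Outside the 10 genes, the 5 most like Mcpt8 were Tent5c, Slfn14, Itgb7, Ltf and Isg20 (r = 0.95 to 0.96), below Prss34 at 0.97. Ltf encodes lactoferrin of neutrophil secondary granules. Outside the 10 genes, the 5 most like Cma1 were Rab34, Oaf, Apod, Tmem176b and Aldh1a3 (r = 0.95 to 0.96). Of these, Apod is an apolipoprotein abundant in nerve sheath fibroblasts. Within the 10, Tpsb2 had r = 0.97 and Mcpt4 0.96 with Cma1. Marker lists were compared in the same way. Summarised as mean deviations, the fibroblast list had r = 0.90 with Cma1, 0.85 with Mcpt4, 0.89 with Tpsb2, 0.72 with Mcpt8, 0.72 with Prss34, 0.59 with Prg2 and 0.56 with Epx. Without DMM vehicle these were 0.84, 0.78, 0.82, 0.78, 0.71, 0.36 and 0.29. The neutrophil list had r = 0.92 with Mcpt8 and with Prss34 and 0.90 with Prg2, 0.82 with Siglecf and 0.81 with Epx, against 0.56 with Cma1. Without DMM vehicle these were 0.77, 0.77, 0.74, 0.74, 0.51 and 0.30. The erythroid list had r = 0.92 with Mcpt8, 0.89 with Prg2, 0.87 with Epx and 0.74 with Siglecf (0.83, 0.73, 0.68 and 0.56 without DMM vehicle). Macrophage markers had r = 0.89 to 0.90 with the 3 mast cell proteases and 0.52 with Prg2 (0.89 to 0.90 and 0.24 without DMM vehicle). Sensory neuron markers ran against all 10, from r = -0.40 for Ms4a2 to -0.80 for Cpa3.

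Lists that varied alongside these genes within groups differed in their calls with the drug. Granulocyte precursor markers had r = 0.91 with Prg2, 0.86 with Siglecf, 0.81 with Epx and 0.53 with Cma1. With Prss34 and Mcpt8 they had r = 0.86 and 0.84. Without DMM vehicle these were 0.77, 0.81, 0.54, 0.25, 0.66 and 0.62. All 5 of these markers rose in both comparisons, and neutrophil markers rose for 5 of 8 in DMM and 6 of 8 in naive mice. Fibroblast markers (Col1a1, Col1a2, Col3a1 and 3 others) had 0 of 6 called in either comparison, with summed levels of 1770 to 6310 CPM in DMM mice with AP20187 and 1250 to 6940 with vehicle, and of 2960 to 5860 and 862 to 4360 in naive mice. Erythroid markers (Hba-a1, Hba-a2, Hbb-bs and 3 others) fell for 4 of 6 in DMM mice and 0 of 6 in naive mice, with medians of -1.81 and -0.94. They summed to 1260 to 5130 CPM in DMM mice with AP20187, 1560 to 26300 with vehicle, 1890 to 4200 in naive mice with AP20187 and 3280 to 13000 with vehicle. Markers that were not called are not shown to have stayed level. The part of these lists in the results on the 10 genes was not tested.

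Ratios of read counts within a library do not depend on scaling between libraries. Prg2 to Epx stayed between 2.08 and 3.86 over all 19 libraries, and Prss34 to Mcpt8 between 2.10 and 4.13. Tpsb2 to Cma1 stayed between 0.618 and 1.25. Mcpt4 to Cma1 was lower with AP20187: its median was 0.829 in DMM mice (0.761 to 0.975) against 1.36 with vehicle (0.96 to 2.47), and 0.932 in naive mice (0.843 to 1.19) against 1.54 (1.16 to 1.80). In DMM mice 3 of the 5 treated mice were below every vehicle mouse, and in naive mice 3 of 4. The ratio of Mpo, the peroxidase of neutrophil precursors, to Prg2 was 5.55 to 18.6 with AP20187 against 0.817 to 1.98 with vehicle in DMM mice, and 2.66 to 4.94 against 1.21 to 2.47 in naive mice. Neither pair of ranges overlapped. These ratios were chosen after the levels had been seen and carry no test.

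**Figure D4:**
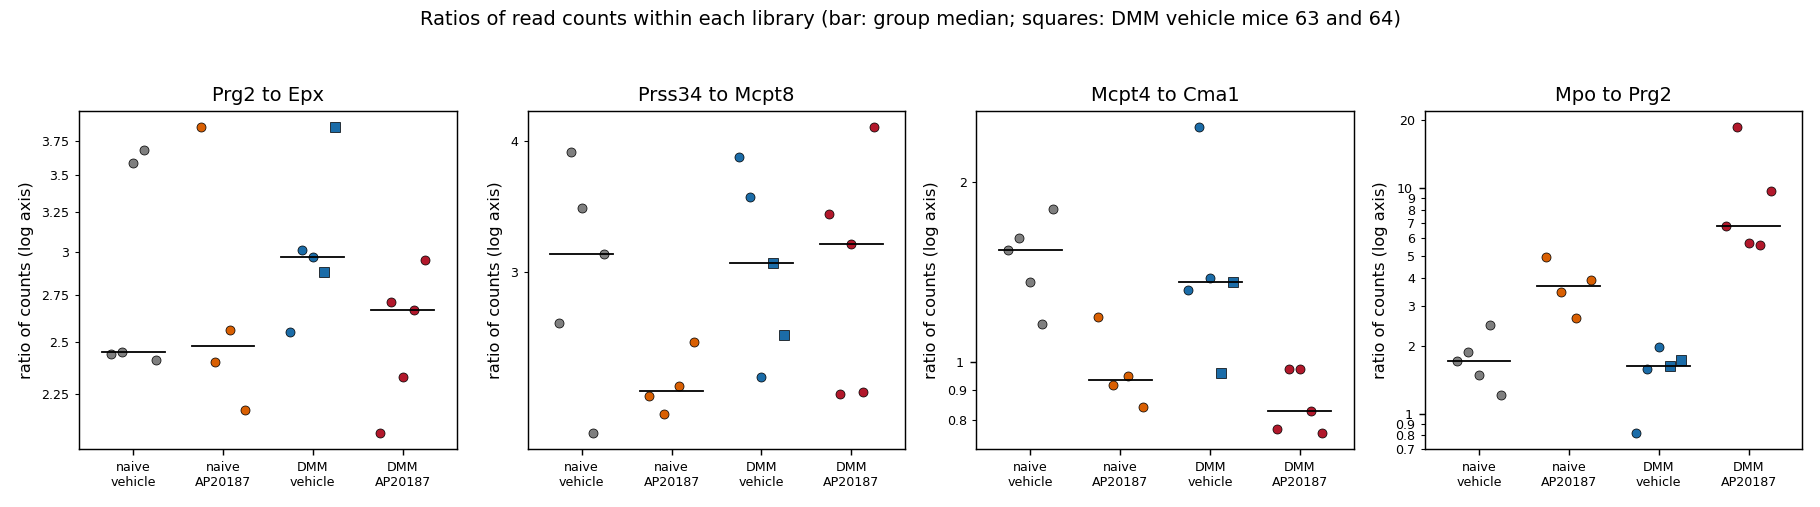
Ratio of read counts within each library on log axes, each point 1 mouse, bars group medians and squares DMM vehicle mice 63 and 64. Prg2 to Epx keeps within 2.08 to 3.86 in all groups, while Mpo to Prg2 in DMM mice lies at 5.55 or more with AP20187 and at 1.98 or less with vehicle.

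Genes of the growth, migration and granule machinery were taken as lists. Of 65 pathway genes besides the 10, 57 were tested: 21 rose and none fell in naive mice (median 1.17), and 19 rose and 2 fell in DMM mice (median 0.87). Of 15 growth and recruitment signals, 5 rose and 1 fell in DMM mice, and 2 rose in naive mice. Csf2rb, the beta chain that receptors for interleukins 3 and 5 and for GM-CSF share, and Csf2rb2, the beta chain specific to interleukin 3 in mice, rose in both (3.80 to 4.08), and Csf2ra, the GM-CSF receptor chain, rose in DMM mice (1.63 ± 0.46, adjusted p = 0.0177). Ccl24, the eotaxin made by macrophages, had no reads in any of the 5 DMM mice with AP20187 (which allows up to 0.0439 to 0.051 CPM) and 0.224 to 2.58 CPM with vehicle, and was called lower (adjusted p = 0.00118). In naive mice Ccl24 averaged 0.205 and 0.465 CPM (adjusted p = 0.433). Of 9 lineage transcription factors 1, Cebpe, rose in each comparison. Of 9 genes of granule packaging and mediator synthesis, 5 rose in DMM and 6 in naive mice. Alox5 and Alox5ap, which start leukotriene synthesis in all granulocytes, rose by 2.98 ± 0.58 and 3.44 ± 0.61 in naive mice and by 2.85 ± 0.56 and 3.08 ± 0.58 in DMM mice, and Ptgs2, a prostaglandin synthase, by 2.69 ± 0.55 and 2.22 ± 0.53.

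Genes near the 10 on the chromosomes were called in both directions. Within 250 kb of each of the 10, 7 to 18 other genes were tested, some of them near more than 1 member. In DMM mice 1 to 6 of them rose and 0 to 3 fell, and in naive mice 0 to 5 rose and 0 to 1 fell, where 11.3% and 8.61% of all genes were called higher. The counts were highest near Cma1, with 6 of 18 higher in DMM and 5 in naive mice, and none rose in naive mice near Cpa3 or Prss34. Members that lie near each other are counted too. In naive mice Mcpt8 was among those higher near Cma1 and near Mcpt4, and Prss34 was the 1 near Tpsb2. The protease cluster on chromosome 14 itself was split in naive mice: Ctsg, cathepsin G of neutrophil precursors, rose by 4.50 ± 0.71 (adjusted p = 0.00104) and Mcpt8 by 2.23, while Cma1 (1.37) and Mcpt4 (0.77) were not called. In DMM mice Ctsg rose by 4.15 ± 0.69 (adjusted p = 0.000727), and none of the other 3 was called. Mpo, 59587 bases from Epx, rose by 3.57 ± 0.71 in naive and 3.50 ± 0.69 in DMM mice (adjusted p = 0.00423 and 0.00246), and Lpo, lactoperoxidase in the same locus, was called in neither (adjusted p = 0.557 and 0.13).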

How the data were processed

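Gene counts and FPKM values of 19 libraries were used as deposited by the authors. Libraries were stranded poly(A) libraries per the labels' protocols. The submitters' processing notes name cutadapt, HISAT2, StringTie and the GRCm39 build, with no versions or roles, and the counting rule is not given in the sources used here. The deposited counts are whole reads per gene, and the deposited FPKM values were scaled by the authors for gene length and depth; FPKM was used only to rank genes and in 1 alternative, as log2(FPKM + 1). Sequences came from RefSeq tables.

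The test was the quasi-likelihood F test of edgeR (version 4.0.16; R 4.3.3), with limma 3.58.1 and DESeq2 1.42.0 as alternatives. Steps were filterByExpr with a minimum count of 10, TMM scaling, 1 quasi-likelihood model of the 4 groups with 15 residual degrees of freedom, and Benjamini-Hochberg adjustment over 22778 genes. log2 CPM for correlations used a prior count of 2. The scripts were tested on simulated data. Descriptions used Python 3.11.15 with pandas 2.3.3 and matplotlib 3.10.9.

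The 10 genes and all lists were chosen with earlier results of these data known. All 10 genes are named; from each pathway list at most 4 called genes with the smallest adjusted p, and Kit, Fcer1a, Ccr3, Il5ra, Gata1 and Gata2 always; from each marker list at most 3 in list order; from within 250 kb the same family; and the 5 genes most like Prg2, Mcpt8 and Cma1. Genes outside this rule were named after their values were seen. Il13, Mcpt9, Il3 and Azu2 were listed and not analysed here. Depth was 60984830 to 74691396 counts per library. The labels do not say how each mouse was handled beyond its group, so p-values measure the spread between these samples. Alternatives covered scaling, filtering, DESeq2, weighted limma, FPKM, the groups fitted, a replicate block, the DMM vehicle mice and each library left out.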

Additional observations from a re-analysis of the deposited data

Results flagged for a closer look

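Of 40 sets of CPM values screened (10 genes in 4 groups), 4 held a mouse far from the others of its group. The rate of about 1 in 20 by chance is nominal, and the 4 were not tested for an excess. Naive AP20187 mouse 3 stood apart for the 3 mast cell proteases and for none of the other genes. Its Cma1 level was 24.0 CPM, against 7.19 to 9.38 CPM in the other 3 mice of its group. Its Mcpt4 level was 22.0 CPM, against 6.82 to 8.58 CPM, and its Tpsb2 level was 18.1 CPM, against 5.80 to 6.95 CPM. DMM vehicle mouse 64 stood apart for Mcpt4, with 36.2 CPM against 4.27 to 12.7 CPM in the other 4 mice. The 3 proteases had r of 0.96 to 0.97 with each other within groups, so the first 3 values are not separate events.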

How the results depend on the processing

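The number of the 10 genes called with AP20187 in naive mice was 5, and became 2 without scaling factors (where 6.8% of all genes tested were called higher), 2 without the filter on low counts (4.02%) and 8 with the replicate block (8.38%). In DMM mice it was 3, and became 8 with weighted limma (21.9%; 46.9% in either direction), 1 when only the compared groups were fitted (11.6%), 7 with DMM vehicle mice 32, 33 and 34 (17.5%) and 0 with 63 and 64 (2.71%). It was 2 in DMM mice both without scaling factors (10.4%) and without the filter (5.78%). With vehicle mice 63 and 64, 2 genes were called between DMM and naive vehicle mice (1.77%). The cause was not tested. Leaving out each replicate gave 0 to 6 in DMM (8.25% to 15.5% of all genes called higher) and 1 to 6 in naive mice (3.61% to 10.5%), and 0 to 0 in the other comparisons. All these calls were higher. RLE scaling, DESeq2 and FPKM gave 3, 4 and 4 in DMM (12.1%, 8.96% and 12.7% of all genes called higher) and 5, 6 and 5 in naive mice (9.04%, 7.54% and 7.13%). For AP20187 against vehicle, signs turned only in DMM mice: Mcpt4 read 0.83 with weighted limma, 1.06 with vehicle mice 32 to 34, 0.06 without mouse 62 and 0.66 without mouse 64; Mcpt8 read -0.33, Cma1 -0.51, Tpsb2 -0.47 and Prss34 -0.16 with vehicle mice 63 and 64; and Cma1 read -0.12 without mouse 58. Between DMM and naive vehicle mice, signs turned with mice 32 to 34 as the only DMM vehicle mice: Prg2 read -0.26, Epx -0.22, Cma1 -0.35, Mcpt4 -0.24 and Tpsb2 -0.33. With AP20187 in DMM mice, over all single libraries left out, Cma1 ran from -0.12 to 1.19 and Mcpt4 from -0.63 to 0.66.

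Deviations of same-numbered naive mice had r = 0.0235, 0.301, -0.0822 and 0.183 for numbers 1, 3, 4 and 5. Only number 3 correlated best with its own. These values cannot decide whether the number is a pairing, since each rests on 1 pair of mice. The labels state no pairing, so the replicate block is given as an alternative only. The block called 2352 of 20425 genes tested, in either direction. The same 8 naive mice without the block gave 1388. Without it 5 of the followed genes were called (5.91% of all genes called higher), an alternative chosen after seeing the data. Depth was even between libraries, and the lowest count of a member was 23 reads, for Siglecf.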
